A study of Mus musculus with 6 samples.

Results

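The 10 genes described here belong to the endoplasmic reticulum (ER) stress response and were measured by RNA-seq of mouse bone marrow. They are Hspa5, Hsp90b1, Calr, Pdia4, Pdia6, Dnajb9, Herpud1, Atf4, Ddit3 and Trib3. They were taken by gene name from a table of 54532 genes, all 10 were present, and all 10 were among the 15015 genes with enough counts to test. Each library held RNA of femoral marrow cells of wild-type mice, isolated fresh. The control group held 3 samples from mice with no treatment, and the unloaded group held 3 samples from mice under hindlimb unloading for 4 weeks, a model of disuse bone loss in which the rear of the body is suspended. The labels used here give no strain, sex or age. They do not say that each replicate is its own animal either, and in that case a p-value reflects only the spread among these libraries, which may be technical.

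The ER folds proteins that are to be secreted or placed in membranes. When unfolded proteins build up there, 3 sensors in its membrane, IRE1 (gene Ern1), PERK (Eif2ak3) and ATF6, start the unfolded protein response. ATF6 and the IRE1 product XBP1 raise chaperones and degradation factors, while PERK slows translation and lets the transcription factor ATF4 be made, which in turn raises CHOP (Ddit3) and Trib3. In marrow this response is best known from plasma cells, whose antibody output depends on it, and it also operates in myeloid precursors that fill their granules with secretory proteins and in osteoblasts that secrete collagen.

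Much of this control acts through short promoter sequences, and these are shown because the genes with and without one of them are set side by side further on, a comparison chosen after the values were seen. RefSeq windows (GRCm38.p6) covering 250 bases before and 50 bases after each transcription start were searched on both strands, and each of the 10 genes had 1 window. The ER stress response element (ERSE), CCAAT and CCACG with any 9 bases between them, which binds NF-Y at one end and ATF6 or XBP1 at the other, was found in 4 of the 10 windows, those of Hspa5, Hsp90b1, Calr and Pdia6. It was found in 0.119% of the 32851 windows in the table, which came to 39 windows of 37 genes. The related ERSE-II, ATTGG and CCACG with any 1 base between them, was found in Herpud1 alone among the 10 and in 0.0365% of all windows. The unfolded protein response element TGACGTGG was found in 0 of the 10 and in 0.676% of all windows. The core TGATGNAA of the element bound by ATF4 with C/EBP factors (CARE) was found in Herpud1 and Trib3 and in 3.97% of all windows. The matches did not overlap one another. A match describes the letters only, and the absence of a match in a window of this length says nothing about sites elsewhere.

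The stretches around the ERSE and ERSE-II matches are given 5′ to 3′ on the strand of the gene, with the matched letters in capitals. The Hspa5 stretch lies at chr2:34772000-34772068 on the plus strand, the Calr stretch at chr8:84847050-84847118 on the minus strand and the Hsp90b1 stretch, with 2 matches, at chr10:86705508-86705681 on the minus strand. The Pdia6 stretch lies at chr12:17266466-17266534 and the Herpud1 stretch at chr8:94386352-94386412, both on the plus strand. All 5 lie wholly before the RefSeq start.
Hspa5: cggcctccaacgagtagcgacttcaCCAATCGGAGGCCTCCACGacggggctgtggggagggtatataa
Calr: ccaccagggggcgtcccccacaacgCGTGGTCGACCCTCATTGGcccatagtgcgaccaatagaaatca
Hsp90b1: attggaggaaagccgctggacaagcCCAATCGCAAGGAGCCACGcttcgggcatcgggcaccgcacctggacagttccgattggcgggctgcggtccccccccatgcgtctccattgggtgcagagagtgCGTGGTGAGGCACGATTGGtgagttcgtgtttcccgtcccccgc
Pdia6: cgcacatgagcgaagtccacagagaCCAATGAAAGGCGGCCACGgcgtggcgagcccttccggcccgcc
Herpud1: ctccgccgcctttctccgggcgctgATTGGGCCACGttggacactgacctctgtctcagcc

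The Hspa5 match ended 47 bases before the start and the Pdia6 match 80 bases before it. The Calr match, on the opposite strand, ended 144 bases before the start. Hsp90b1 carried 1 match on each strand, beginning 212 and 107 bases before its start. The ERSE-II of Herpud1 began 52 bases before its start.

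Library depth was even, from 15850986 to 17775506 counts, and levels between libraries are given as CPM, read counts scaled to library size with TMM factors. A count of 0 would allow up to 3 counts, or 0.169 to 0.189 CPM, by counting error alone. The library of unloaded replicate 1 stood apart. Its score on the first principal component was 51.3, against -13.7 to -7.37 for the other 5, its mitochondrially encoded transcripts made up 0.439% of counts against 1.05% to 1.27%, and it was the highest of the 6 libraries for 28.2% of tested genes and the lowest for 29.5%. Defining markers of marrow neutrophils were abundant in every library, with the 8 genes of that list summing to 43161 to 53688 CPM. In such bulk samples, fewer cells of a type and less RNA per cell cannot be told apart.

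None of the 10 ER stress genes passed a test for a difference between unloaded and control marrow. The log2 fold change was above 0 for 7 and below 0 for 3, against 48.8% of all tested genes below 0. It ran from -0.20 for Herpud1 to 0.20 for Ddit3, with a median of 0.052 against 0.0054 over all tested genes. By edgeR (quasi-likelihood, adjusted across the 15015 genes) 0 of the 10 were called at an adjusted p under 0.05, where the background was also 0%, and their adjusted p-values ran from 0.890 to 0.998. At an unadjusted p under 0.05 there were 0 of 10 against 5.85% of all genes, and the smallest unadjusted p among the 10 was 0.117. DESeq2 called 0 of the 10, against a background of 0.253%, and limma-voom 0 of the 10, against 0%. The groups overlapped for every one of the 10 genes, while they did not overlap for 11.9% of all tested genes.

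The 95% intervals give the size of difference that the spread among these libraries leaves room for. For the 9 genes other than Trib3 the 95% intervals of the log2 fold change lay between -0.51 and 0.62, that is between 0.704-fold and 1.54-fold. The narrowest was that of Atf4, from -0.20 to 0.26, and that of Trib3, which had 17 to 35 counts per library, ran from -0.82 to 0.86.

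**Figure D1:**
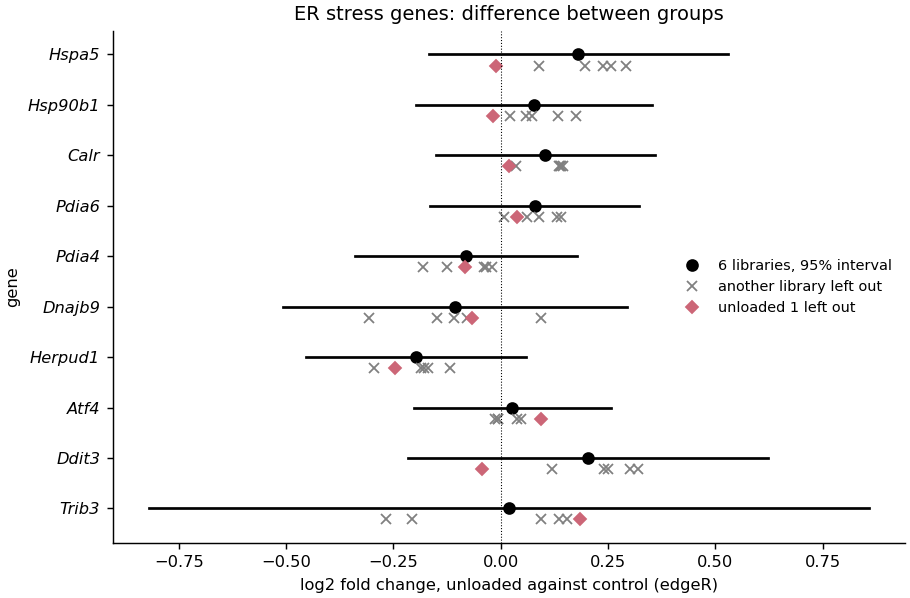
Log2 fold change of each ER stress gene in unloaded against control marrow (horizontal axis, edgeR), with its 95% interval from all 6 libraries and, beneath it, the values with 1 library left out. All 10 intervals include 0, and without unloaded 1 the values of Hspa5, Hsp90b1 and Ddit3 moved from above 0 to below it.

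Compared per length of transcript, with the deposited gene lengths, the 10 genes covered a wide range. Calr stood at the top with a mean over the 6 libraries of 669 TPM, a level corrected for transcript length and depth, followed by Hspa5 at 454, Atf4 at 330 and Hsp90b1 at 256 TPM. Pdia6 (142 TPM) and Herpud1 (137 TPM) came next and overlapped across libraries. Pdia4 stood at 108 TPM, and below it Dnajb9 (47.5 TPM) and Ddit3 (31.3 TPM) overlapped in turn. Trib3 was at 1.98 TPM. The other neighbours in this order did not overlap. Among all tested genes Calr ranked 155 and Hspa5 266 by this level, so the ER chaperones were among the abundant transcripts of this marrow.

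The chaperones that hold and fold new proteins in the ER lumen were the most abundant group. Hspa5 (ENSMUSG00000026864, mm10 chromosome 2, 34771970 to 34777547) encodes BiP, the HSP70 of the ER, which also keeps the 3 sensors inactive until unfolded proteins draw it away. It was at 719, 666 and 566 CPM in control replicates 1 to 3 and at 921, 615 and 674 CPM in unloaded replicates 1 to 3. Unloaded 1 was the highest and control 3 the lowest, and the other 2 unloaded libraries lay within the range of the controls. Controls averaged 650 ± 77.4 CPM and unloaded marrow 737 ± 162 CPM (SD, n = 3). The log2 fold change was 0.18 ± 0.16 (SE; edgeR adjusted p = 0.914). Without unloaded 1 the value was -0.012.

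Hsp90b1 (ENSMUSG00000020048, chromosome 10, 86690209 to 86705509) encodes GRP94, the HSP90 of the ER, which folds integrins and Toll-like receptors. It was at 392, 362 and 336 CPM in the controls and at 432, 326 and 391 CPM after unloading. The unloaded group held both the highest and the lowest library. The log2 fold change was 0.08 ± 0.12 (SE; edgeR adjusted p = 0.952), or -0.018 without unloaded 1. Its span overlaps that of 2 low-count transcripts, 1810014B01Rik and Gm15344, which had at most 104 counts in any library against at least 5537 for Hsp90b1.

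Calr (ENSMUSG00000003814, chromosome 8, 84841850 to 84846934) encodes calreticulin, a calcium-binding chaperone for glycoproteins. It was at 704, 701 and 606 CPM in the controls and at 802, 683 and 676 CPM after unloading, so that unloaded 1 was again the highest and control 3 the lowest. The log2 fold change was 0.10 ± 0.12 (SE; edgeR adjusted p = 0.930), or 0.020 without unloaded 1 and 0.035 without control 3.

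The protein disulfide isomerases, which form and rearrange disulfide bonds, did not share one order. Pdia6 (ENSMUSG00000020571, chromosome 12, 17266545 to 17284770), whose product also acts on the sensors, was at 189, 202 and 168 CPM in controls and 208, 181 and 201 CPM after unloading. It was highest in unloaded 1, but only just above control 2 (log2 fold change 0.08 ± 0.11, SE; 0.037 without unloaded 1). Pdia4 (ENSMUSG00000025823, chromosome 6, 47796141 to 47813430), which encodes ERp72, was at 102, 104 and 82.1 CPM in controls and 91.2, 85.0 and 96.0 CPM after unloading. All 3 unloaded values of Pdia4 lay inside the range of the controls (log2 fold change -0.08 ± 0.12, SE).

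Dnajb9 and Herpud1 act in the removal of misfolded proteins. Dnajb9 (ENSMUSG00000014905, chromosome 12, 44205559 to 44210326) encodes ERdj4, a co-chaperone of BiP that represses IRE1. It was at 57.0, 47.2 and 31.8 CPM in the controls and 39.8, 44.4 and 42.2 CPM after unloading. The controls spread on both sides of the unloaded libraries, with an SD of 12.7 against 2.33 CPM (n = 3 each), and leaving out control 1 turned the log2 fold change from -0.11 ± 0.18 (SE) to 0.093. Without unloaded 1 it was -0.066.

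Herpud1 (ENSMUSG00000031770, chromosome 8, 94386438 to 94395377) encodes HERP, which organises the HRD1 ubiquitin ligase complex in the ER membrane. It was at 137, 127 and 107 CPM in the controls and 115, 105 and 103 CPM after unloading, and 1 unloaded library lay within the controls. Of the 10 genes it had the smallest unadjusted p (0.117), with 124 ± 15.5 against 108 ± 6.30 CPM (SD, n = 3) and a log2 fold change of -0.20 ± 0.12 (SE; edgeR adjusted p = 0.890). It was below 0 in all 6 fits with a library left out. Its unadjusted p was 0.0392 without unloaded 1 and 0.0389 without control 3, with edgeR adjusted p-values of 0.519 and 0.986. An antisense gene, Gm15890, overlaps it with 9 to 18 counts.

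Atf4, Ddit3 and Trib3 stand in the transcription branch downstream of PERK. Atf4 (ENSMUSG00000042406, chromosome 15, 80255184 to 80257541), whose product is controlled mainly in translation, was at 286, 283 and 266 CPM in controls and 257, 295 and 298 CPM after unloading. Its libraries were the closest together of the 10, the highest being 1.16 times the lowest, and unloaded 1 was the lowest of the 6. The log2 fold change was 0.03 ± 0.10 (SE; edgeR adjusted p = 0.979).

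Ddit3 (ENSMUSG00000025408, chromosome 10, 127290774 to 127296288) encodes CHOP, the factor tied to cell death in prolonged ER stress. It was at 18.9, 19.2 and 15.9 CPM in controls and 27.3, 17.7 and 17.2 CPM after unloading. The higher unloaded mean, 20.7 ± 5.68 against 18.0 ± 1.85 CPM (SD, n = 3), came from unloaded 1, and the other 2 unloaded libraries lay within the controls. The log2 fold change was 0.20 ± 0.19 (SE; edgeR adjusted p = 0.924), or -0.044 without unloaded 1. The table also lists another gene of the same name, with a counted length of 105 bases over a span of 2925 bases within Ddit3, that had 0 counts in every library, and the end of Mars overlaps Ddit3 by 68 bases on the opposite strand, so a few reads could not be placed with certainty. Trib3 (ENSMUSG00000032715, chromosome 2, 152337422 to 152344032), a pseudokinase gene that CHOP and ATF4 raise, was at 1.77, 1.75 and 0.998 CPM in controls and 1.15, 2.06 and 1.36 CPM after unloading. At this depth no order between its groups was detectable.

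**Figure D2:**
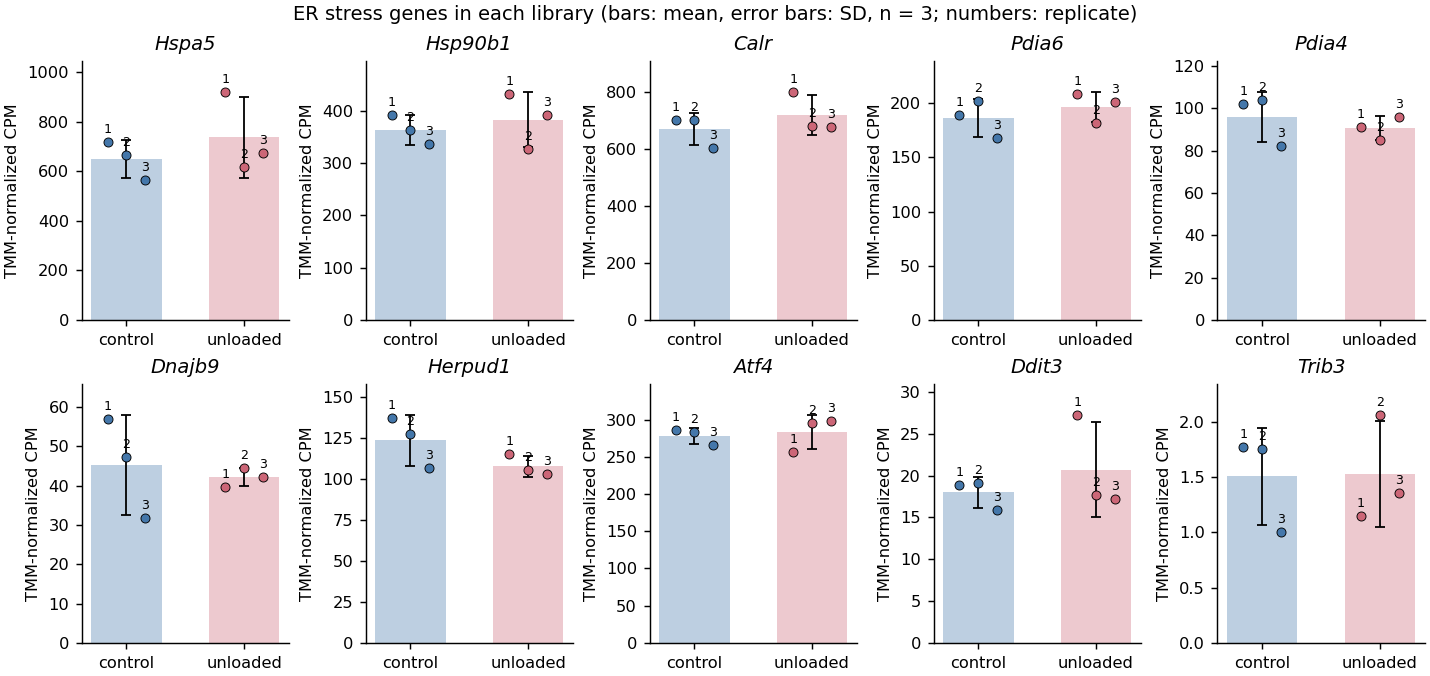
TMM-normalized CPM of the 10 ER stress genes (vertical axis of each panel) in control and unloaded marrow, with a point for each library numbered by replicate, bars at the mean and error bars for the SD (n = 3). The groups overlap in every panel, and unloaded 1 is the highest point for Hspa5, Hsp90b1, Calr, Pdia6 and Ddit3.

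Libraries of the same group also differed from one another. Unloaded 1 was the highest library for 5 of the 10 genes, against a background of 28.2% of all tested genes, and the lowest for Atf4 alone. Control 3 was the lowest library for 7 of the 10, against 12.1% of all tested genes, the exceptions being Hsp90b1, Atf4 and Herpud1. Control 1 was the highest for 2 of the 10, Dnajb9 and Herpud1, near the background of 15.9% of all tested genes. The summed level of the 10 genes was 2606, 2514 and 2178 CPM in controls and 2895, 2355 and 2501 CPM after unloading.

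**Figure D3:**
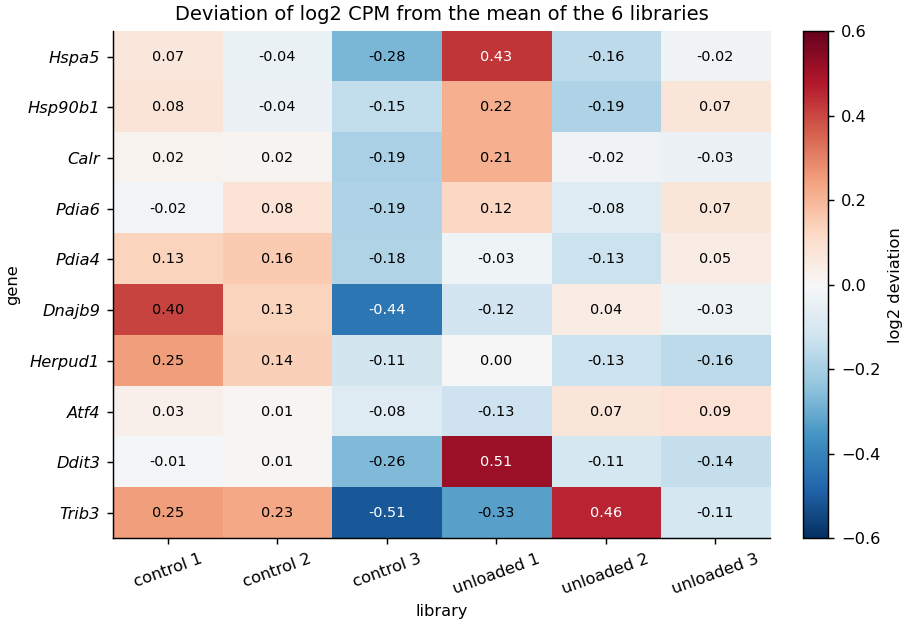
Deviation of each gene's log2 CPM from its mean over the 6 libraries (colour and printed value; rows, genes; columns, libraries). Hspa5 and Ddit3 reach 0.43 and 0.51 in unloaded 1, where Trib3 is at -0.33, and Dnajb9 runs from 0.40 in control 1 to -0.44 in control 3.

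Unloaded 1 was also compared between genes with and without an ERSE. In log2 CPM, unloaded 1 exceeded the mean of the other 5 libraries by 0.51 for Hspa5, 0.26 for Hsp90b1, 0.25 for Calr and 0.15 for Pdia6, the 4 genes with an ERSE, and it was the highest library for all 4. Of the 6 genes without one it was the highest for Ddit3 (0.62) alone, and the others ran from -0.39 for Trib3 to -0.0015 for Herpud1. This is a description of 1 library, with the genes compared after their values were seen. Genes with an ERSE outside the 10 were counted in the same way. Of the 33 such genes outside the 10, 13 were tested, and unloaded 1 was the highest library for 3 of the 13 (23.1%), near the background of 28.2%, and the lowest for 4. Some of the 13 were at low levels. Of the 3, Acacb was at 1.47 CPM in unloaded 1, and Alg12 was nearly tied there (16.25 CPM) with unloaded 3 (16.17 CPM). Of the 4, Calr4 was at 0.0637 CPM in unloaded 1. Among the 13, singled out after their values were seen, the ER-resident Creld2 was at 63.7 CPM in unloaded 1 against 29.5 to 37.8 CPM in the others. The chaperone gene Canx, at 296 CPM, was lower there than in the others (330 to 363 CPM). The ER genes Derl3, Dnajc3 and Syvn1, also among the 13, were not highest in unloaded 1. Against the mean of the other 5 libraries they were at 0.089, -0.0049 and -0.16 in log2 CPM.

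**Figure D4:**
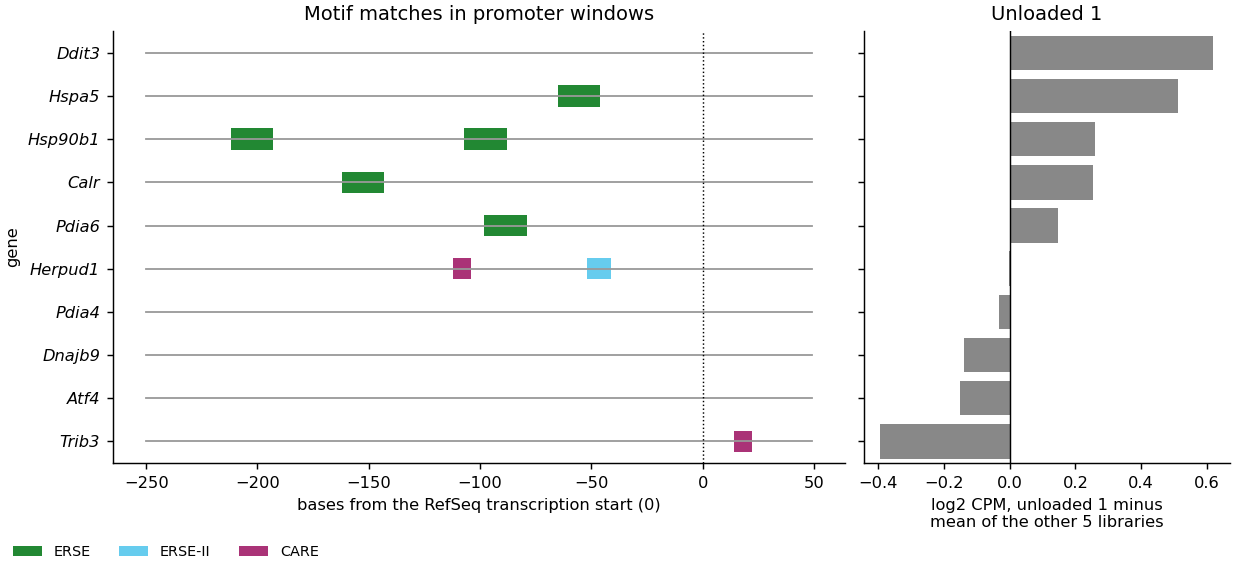
Left, positions of motif matches in the promoter windows of the 10 genes (horizontal axis, bases from the RefSeq start at 0). Right, log2 CPM of unloaded 1 minus the mean of the other 5 libraries. The genes are ordered by the right panel, and the 4 with an ERSE match lie between 0.15 and 0.51, below Ddit3 at 0.62.

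The genes whose profile over the 6 libraries was most like that of Hspa5 were Ptpn1, Txndc15, D2hgdh, Ddi2 and Lman2l, out of 8957 protein-coding genes with a mean of at least 10 CPM. Likeness was measured as the root-mean-square difference of log2 CPM after centring each gene on its own mean, which was 0.0344 for Ptpn1 and 0.0424 for Lman2l. Ptpn1 was at 272, 255 and 224 CPM in controls and 373, 236 and 259 CPM after unloading, and so shared the high unloaded 1 and the low control 3. Its log2 fold change was 0.21 ± 0.16, or -0.018 without unloaded 1. Of the other ER stress genes Ddit3 was closest, with a difference of 0.0746 that would rank 41 in that list. Hsp90b1 would rank 277 and Calr 330, while Atf4 (4675), Dnajb9 (5566) and Trib3 (8279) were far from it.

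The wider unfolded protein response was covered by lists of sensors and transcription factors, other ER chaperones, ER-associated degradation, translocation into the ER, and targets of ATF4 and CHOP. No gene of these lists was called by edgeR. Of the 12 sensors and transcription factors 1 was at an unadjusted p under 0.05 (background 5.85%), and their median log2 fold change was -0.03. That gene was Eif2ak3, which encodes PERK, at 92.8, 92.2 and 81.9 CPM in controls and 65.1, 79.4 and 69.2 CPM after unloading. All 3 unloaded values lay below the controls, as for 6.4% of all tested genes, with a log2 fold change of -0.32 ± 0.11 (SE; edgeR adjusted p = 0.801). The ER membrane factor genes Creb3l1 (-0.47 ± 0.31) and Creb3l2 (-0.20 ± 0.17) overlapped between groups, at -0.21 and -0.42 without unloaded 1. The other sensor genes, Ern1 at -0.11 ± 0.15 and Atf6 at 0.03 ± 0.11, also overlapped. Xbp1, at 265 CPM in unloaded 1 and 175 to 214 CPM in the others, had 0.16 ± 0.14, or 0.024 without unloaded 1, and gene counts do not show whether its transcript was spliced by IRE1.

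Among the 21 other ER chaperones and folding enzymes 0 were called and 0 were at an unadjusted p under 0.05. Their median log2 fold change was 0.01, with 11 above 0 and 10 below. The 3 with the smallest p were the prolyl isomerase genes Fkbp2 (0.26 ± 0.15), Ppib (0.16 ± 0.10) and Fkbp11 (-0.45 ± 0.29). Without unloaded 1 Fkbp2 was at 0.10 and Ppib at 0.095, and without control 2 Fkbp11 was at -0.24. Unloaded 1 was the highest library for 10 of these 21 genes, against 28.2% of all genes. Of the 14 genes of ER translocation and signal peptide cleavage, 0 were at an unadjusted p under 0.05, with a median of 0.01 and unloaded 1 highest for 2. Spcs1 (0.15 ± 0.10), Spcs3 (-0.10 ± 0.13) and Sec61b (-0.10 ± 0.13) had the smallest p.

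In ER-associated degradation 0 of 16 genes were called and 2 were at an unadjusted p under 0.05, both lower after unloading, against 3.18% of all genes in that direction. Edem3, which trims mannose from misfolded glycoproteins, was at 89.5, 79.2 and 78.9 CPM in controls and 43.3, 70.9 and 68.3 CPM after unloading. Syvn1, which encodes the HRD1 ligase that Herpud1 serves, was at 146, 131 and 127 CPM in controls and 111, 119 and 105 CPM after unloading. Neither overlapped between groups, and 3 of the 16 genes were lower without overlap, against 6.4% of all tested genes. The log2 fold changes of Edem3 and Syvn1 were -0.44 ± 0.17 and -0.27 ± 0.10 (SE; both with an edgeR adjusted p of 0.804). Edem3 was at -0.25 without unloaded 1. Syvn1 overlaps Mrpl49 by 83 bases on the opposite strand. Vcp, the gene of the ATPase that pulls proteins out of the ER membrane, had 0.18 ± 0.11, and the list's median was -0.01.

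The list of ATF4 and CHOP targets held the genes with the smallest p-values of the pathway, in both directions. Of its 28 tested genes 0 were called by edgeR, while 6 were higher at an unadjusted p under 0.05, against 2.67% of all genes, and 2 were lower, against 3.18%. Its median log2 fold change was 0.13, with 18 above 0. The 2 lower genes were Chac1 and Ddit4. Without unloaded 1 there were 10 higher and 5 lower, where the shares of all genes also rose, to 3.81% and 5.18%. Without control 1 there were 2 higher and 1 lower, where those shares fell to 1.45% and 1.65%. Without unloaded 2, and likewise without unloaded 3, 1 was lower, against 3.88% and 3.51% of all genes.

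Chac1 (ENSMUSG00000027313, chromosome 2, 119351229 to 119354381), which encodes a glutathione-degrading enzyme induced through ATF4 and CHOP, was at 10.2, 9.46 and 9.16 CPM in controls and 5.99, 4.18 and 4.75 CPM after unloading. All 3 unloaded values lay below the controls, as for 6.4% of all tested genes. Controls averaged 9.60 ± 0.523 CPM and unloaded marrow 4.98 ± 0.924 CPM (SD, n = 3), and the log2 fold change was -0.95 ± 0.20 (SE). It did not pass edgeR's test (unadjusted p = 0.000738, adjusted p = 0.422) and did pass DESeq2's (adjusted p = 0.0203). DESeq2's call held without unloaded 1 (adjusted p = 0.0041) and ended with any other library left out, where its adjusted p ran from 0.154 without control 3 to 0.672 without control 1. Leaving out control 2 gave 0.300, leaving out unloaded 2 gave 0.205 and leaving out unloaded 3 gave 0.166. The edgeR log2 fold change ran from -1.10 to -0.84 over the fits with 1 library left out. The genes of its regulators, Atf4 and Ddit3, had log2 fold changes of 0.03 and 0.20.

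Of the 6 higher targets the largest change was that of Aars, the alanyl-tRNA synthetase gene, at 103, 112 and 106 CPM in controls and 149, 129 and 135 CPM after unloading (log2 fold change 0.37 ± 0.10, SE; edgeR adjusted p = 0.667, DESeq2 adjusted p = 0.220). Gars, the glycyl-tRNA synthetase gene, was at 102, 104 and 96.7 CPM in controls and 124, 119 and 129 CPM after unloading (0.30 ± 0.10). The others, named here after their values were seen, were the synthetase gene Sars (0.29 ± 0.10), the serine-to-glycine enzyme gene Shmt2 (0.29 ± 0.11) and both chains of an amino acid transporter, Slc7a5 (0.32 ± 0.11) and Slc3a2 (0.26 ± 0.09). Of the 28 tested targets 7 had all 3 unloaded values above the 3 controls, against 5.46% of all tested genes. These 7 include the same 6 genes already picked by p. For 2 of the 28 all 3 unloaded values lay below the controls, against 6.4% of all tested genes. Other tRNA synthetase genes of the list, Wars (0.13), Nars (0.19) and Eprs (0.14), did not reach an unadjusted p under 0.05. Asns, a classical ATF4 target also named after its values were seen, overlapped between groups at 0.18 ± 0.13, or 0.29 without unloaded 1 and 0.078 without unloaded 3.

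**Figure D5:**
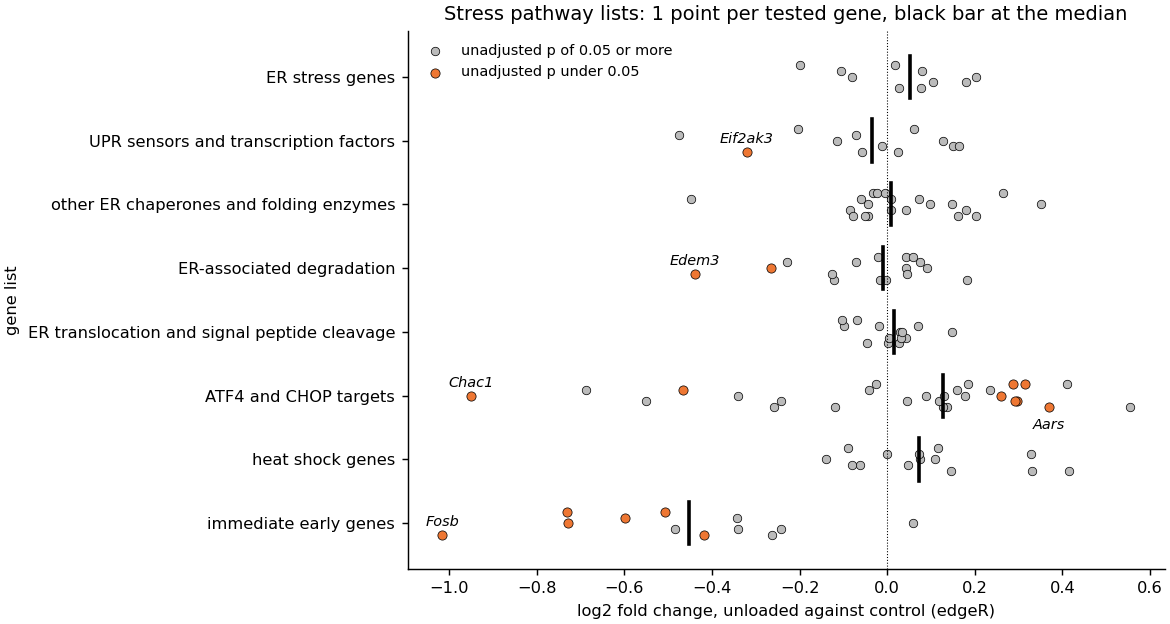
Log2 fold change of every tested gene in 8 stress lists (horizontal axis, unloaded against control, edgeR), with a black bar at the median and orange points for an unadjusted p under 0.05. The ER stress genes hold 0 orange points, the ATF4 and CHOP targets 6 above 0 and 2 below it, and the immediate early genes 6, all below 0.

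Markers of secretory cells and other stress genes were read in the same libraries. In the plasma cell list 0 of 12 genes were called and 3 were lower at an unadjusted p under 0.05, against 3.18% of all genes, with a median log2 fold change of -0.17, and its summed level was 634 to 728 CPM in controls and 559 to 687 CPM after unloading. Of the 12 genes 5 were above 0 and 7 below it, and Jchain, the antibody joining chain, was at 0.01 ± 0.16. All 3 unloaded values lay below the controls for 3 of the 12 genes, against 6.4% of all tested genes. These were the same 3 genes already picked by p. They were Pou2af1 (-0.45 ± 0.12) and Irf4 (-0.52 ± 0.15), which other B cells also express, and the surface marker gene Sdc1 (-0.61 ± 0.21). Sdc1 was named after its values were seen, and without control 1 Irf4 was at -0.31. Promyelocyte genes, at 6237 to 7713 CPM in controls and 6058 to 6547 CPM after unloading, had a median of -0.11. Among them were the granule genes Mpo at -0.08 ± 0.11, Elane at -0.14 ± 0.12 and Prtn3 at -0.15 ± 0.14. Osteoblast genes summed to 147 to 337 CPM in controls and 106 to 219 CPM after unloading. Of the 8 tested genes 0 were called and all 8 were below 0, against 48.8% of all tested genes. Their median was -0.35, or -0.21 without unloaded 1. Col1a1 (-0.60 ± 0.46), Col1a2 (-0.62 ± 0.50) and Runx2 (-0.09 ± 0.14) overlapped between the groups. Without unloaded 1 Col1a1 was at -0.22 and Col1a2 at -0.21, and without control 3 they were at -0.12 and -0.10. The part these cells have in the ER stress values was not tested.

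Heat shock genes, a list of cytosolic chaperones that also holds the mitochondrial Hspd1 and Hspe1, summed to 5594 CPM in unloaded 1, against 3699 to 4568 CPM in the others. That excess lay largely in 1 gene, Hspa8, the constitutive HSP70. It was at 2564 CPM there and at 1121 to 1536 CPM elsewhere (log2 fold change 0.41 ± 0.25, or 0.021 without unloaded 1). The median deviation of the 14 tested genes from their means, in log2 CPM, was 0.17 in unloaded 1 and 0.12 in control 1. Unloaded 1 was the highest library for 7 of the 14, against 28.2% of all tested genes, and the lowest for 3, against 29.5%. Bag3 had 0.33 ± 0.22 and Hsp90ab1 0.14 ± 0.11, or 0.052 and 0.084 without unloaded 1, and 0 of the 14 were at an unadjusted p under 0.05. Immediate early genes, which cells switch on rapidly after a stimulus, were highest in control 1 for 11 of 12 (background 15.9%) and lowest in unloaded 1 for 9 of 12 (background 29.5%). Of the 12, 6 were lower at an unadjusted p under 0.05, against 3.18% of all genes, and 0 were called. The number was 0 without control 1 (1.65% of all genes), 2 without unloaded 1 (5.18%) and 10 without a low-count filter (3.03%). Junb, whose count overlaps Prdx2, had -0.51 ± 0.17, Jun -0.60 ± 0.23 and Fosb -1.02 ± 0.37. Without control 1 Jun was at -0.21 and Fosb at -0.62, and without unloaded 1 Junb was at -0.33. Of the 10 ER stress genes 2, Dnajb9 and Herpud1, were highest in control 1, which is near the background of 15.9%. The part of the heat shock and immediate early genes in the ER stress values was not tested.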

How the data were processed

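RNA-seq counts of 6 bone marrow libraries, 3 control and 3 unloaded, were grouped by sample title. The table the authors deposited holds raw read counts per gene, unnormalized, with gene length, position and name. HISAT2 2.0.5, featureCounts 1.5.0-p3, CASAVA and mm10 are named per the submitters' processing notes. For annotation release, strand setting and multi-mapped reads the sources used here give nothing.

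Genes kept by filterByExpr were scaled by TMM and tested with edgeR 4.0.16 (glmQLFit, glmQLFTest; R 4.3.3), with Benjamini-Hochberg adjustment over all 15015 genes. Standard errors are the log2 fold change over the square root of F, and 95% intervals use the fit's degrees of freedom. Log2 CPM used a prior count of 2. TPM was computed from counts and deposited lengths. Alternatives were DESeq2 1.42.0, limma-voom (limma 3.58.1), scaling by RLE or upper quartile, no filter, at least 1 CPM in 3 libraries, removal of hemoglobin and the 20 top genes, a replicate block, and each library left out. Leave-one-out DESeq2, the counts at unadjusted p and the alternatives for named genes outside the 10 were added after seeing the data. Every pair of libraries differed by more than sampling noise (chi-square per degree of freedom 6.64 to 34.3).

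The members and lists were chosen with earlier results of these data known. Named were the 10 genes, the 3 genes of smallest p in each pathway list, the 3 most abundant of each marker list and the 5 most like Hspa5; others are said to be chosen after their values were seen, apart from the sensor genes and Xbp1, kept as core of the pathway. Promoter sequences are RefSeq's (GRCm38.p6).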

Additional observations from a re-analysis of the deposited data

How the results depend on the processing

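None of the 10 ER stress genes was called by any of the 14 alternatives, or by DESeq2 with any library left out, and their median log2 fold change ran from -0.015 without unloaded 1 to 0.11 without control 1. With 1 library left out the log2 fold changes ran across 0 for Hspa5 (-0.012 to 0.29), Ddit3 (-0.044 to 0.32) and Hsp90b1 (-0.018 to 0.18), each below 0 only without unloaded 1. They did so for Atf4 (-0.013 to 0.093, below 0 without control 3, unloaded 2 or unloaded 3), Dnajb9 (-0.31 to 0.093, above 0 without control 1) and Trib3 (-0.27 to 0.18, below 0 without control 3 or unloaded 2). They also did so for Spcs3 (-0.23 to 0.017, above 0 without unloaded 1) and Sec61b (-0.19 to 0.020, above 0 without control 2). Outside the 10, the range also crossed 0 for Ern1 (-0.28 to 0.0067, above 0 without control 3 or unloaded 1), Atf6 (-0.066 to 0.075, below 0 without control 2) and Jchain (-0.15 to 0.16, and -0.0026 with no filter). It crossed 0 without unloaded 1 for Canx (-0.11 to 0.033), Creld2 (-0.053 to 0.52), Runx2 (-0.18 to 0.060), Ptpn1 (-0.018 to 0.33) and Lman2l (-0.020 to 0.27), and without control 2 for Mpo (-0.14 to 0.015) and Prtn3 (-0.24 to 0.0048). Over all genes edgeR called 0, with 879 at an unadjusted p under 0.05. DESeq2 called 35, edgeR with no low-count filter 183, and edgeR 0 to 5 with a library left out, the 5 being Fam129c, Myl4, Stfa1, BC100530 and Igkv10-94 without unloaded 1. DESeq2 called 1 ATF4 and CHOP target, Chac1. With no filter edgeR called 2 of that list (Chac1 and Atf3), 2 plasma cell genes (Pou2af1 and Irf4), 2 osteoblast genes (Col1a1 and Col1a2) and 6 immediate early genes. The cause was not tested. With the replicate block edgeR called 1 gene, Stfa1, and 0 of the 10. The labels give no pairing, so the numbers were not taken as pairs. Deviations of same-numbered libraries had correlations of 0.0309, -0.0633 and 0.0185 across genes, within the -0.0880 to 0.0939 of differently numbered ones. With 3 libraries per group these values cannot settle whether libraries were paired. Upper-quartile scaling moved the median of all genes from 0.0054 to 0.024. Depth limits Trib3 most, at 17 to 35 counts per library.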
